A study of Homo sapiens with 6 samples.

Results

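The genes described here are 10 cell cycle genes around the Aurora and Polo kinases and the chromosomal passenger complex, namely AURKA, AURKB, BORA, TPX2, CDCA8, INCENP, BIRC5, PSRC1, PLK1 and NEK2. They are 10 of the 39020 genes listed in at least 1 of the 6 libraries. The choice was by gene symbol, with earlier results of these data known, so contrasts with all genes are descriptions. RNA-seq listed all 10, whereas the iCLIP tables used here carry a line for 8 of them and none for INCENP and PLK1. All libraries came from U2OS, a human osteosarcoma cell line. For iCLIP, which sequences the RNA that ultraviolet light has joined to a protein, cells stably transfected with FLAG-tagged TIRR (genotype TIRR_FLAG) were used untreated (2 libraries) or 4 h after 5 Gy of X-rays (2 libraries). For RNA-seq, wild-type cells (WT) were used untreated (1 library) or after the same dose and recovery (1 library), and its values therefore lack replicates. The labels of both assays give X-rays, although the description of the RNA-seq part names gamma rays. TIRR is a partner of the DNA break repair protein 53BP1. The labels name no clone and do not say whether the iCLIP libraries are separate cultures, so p-values reflect only how these libraries varied, possibly for technical reasons. Empty-vector cells were not analysed here, so no iCLIP value has a background subtracted.

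Aurora A works at centrosomes and spindle poles, where TPX2 holds it in its active form on the spindle. BORA lets Aurora A activate PLK1, the Polo kinase, before mitosis begins, and NEK2 is a kinase that parts the duplicated centrosomes. Aurora B is the enzyme of the chromosomal passenger complex, in which INCENP is the scaffold and CDCA8 (borealin) and BIRC5 (survivin) direct the complex to centromeres and the spindle midzone. PSRC1 is a spindle protein that binds microtubules. These genes are made mainly in G2 phase and mitosis, and their messages are known to fall when damaged cells stop dividing, through promoter elements called the cell cycle genes homology region (CHR) and the CCAAT box.

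Promoter windows were available from RefSeq (GRCh38.p14) for 7 of the 10 genes, each running from 250 bases before to 50 bases after a gene start. The CHR element was searched as TTTGAA or TTCGAA and the CCAAT box as CCAAT, each on both strands. A CHR element was present in 5 of the 7 genes (BORA, CDCA8, INCENP, PLK1 and PSRC1) and a CCAAT box in all 7. Over all 35116 windows of the table, 16.4% held a CHR element, 34.6% a CCAAT box and 6.38% both. The windows of CDCA8, PLK1, PSRC1 and BORA are printed 5′ to 3′ on the gene's strand because these 4 genes hold both elements and passed the RNA-seq size rule given with those results. INCENP, which also holds both, did not pass it and is not printed. NEK2 passed it, but its window held no CHR element and is not printed either. The 4 genes were picked on both traits, so the print shows no link between them. The elements stand in capitals (the CCAAT box of the other strand reads ATTGG). CDCA8 lies at chr1:37692266-37692565 (plus strand), PLK1 at chr16:23678639-23678938 (plus), PSRC1 at chr1:109283096-109283395 (minus) and BORA at chr13:72727673-72727972 (plus).
CDCA8: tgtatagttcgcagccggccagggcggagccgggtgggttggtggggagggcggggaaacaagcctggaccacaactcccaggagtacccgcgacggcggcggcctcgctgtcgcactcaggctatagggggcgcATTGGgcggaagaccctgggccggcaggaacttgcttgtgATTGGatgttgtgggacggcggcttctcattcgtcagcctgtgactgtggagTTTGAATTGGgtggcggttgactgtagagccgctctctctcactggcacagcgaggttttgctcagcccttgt
PLK1: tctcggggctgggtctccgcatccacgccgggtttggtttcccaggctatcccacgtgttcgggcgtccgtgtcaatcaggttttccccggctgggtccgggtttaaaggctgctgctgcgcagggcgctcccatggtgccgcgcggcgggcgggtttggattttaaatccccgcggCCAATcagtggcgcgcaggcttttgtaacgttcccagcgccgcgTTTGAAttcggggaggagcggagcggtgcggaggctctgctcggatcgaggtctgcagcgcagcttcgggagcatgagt
PSRC1: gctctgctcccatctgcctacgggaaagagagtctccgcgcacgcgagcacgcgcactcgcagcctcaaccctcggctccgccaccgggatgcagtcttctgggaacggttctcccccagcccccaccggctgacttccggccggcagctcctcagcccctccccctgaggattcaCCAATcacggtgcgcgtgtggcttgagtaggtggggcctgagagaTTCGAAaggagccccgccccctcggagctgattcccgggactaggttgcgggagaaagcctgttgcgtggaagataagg
BORA: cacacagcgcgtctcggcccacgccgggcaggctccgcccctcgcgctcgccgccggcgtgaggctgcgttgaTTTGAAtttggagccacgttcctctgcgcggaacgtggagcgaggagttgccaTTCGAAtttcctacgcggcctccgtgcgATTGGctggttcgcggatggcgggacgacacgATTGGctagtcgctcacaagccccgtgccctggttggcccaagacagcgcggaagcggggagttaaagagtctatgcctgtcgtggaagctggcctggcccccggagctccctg

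In these windows the CHR element of PLK1 and that of PSRC1 both began 29 bases before the gene start, that of CDCA8 23 bases and that of INCENP 10 bases before it. In CDCA8 the element shares 1 base with a CCAAT box on the other strand. BORA held 2 CHR elements, which began 177 and 124 bases before the start. The windows of AURKB and NEK2 held CCAAT boxes, and neither spelling of the CHR element was in them. A match describes the sequence and shows no binding, and AURKA, TPX2 and BIRC5 had no window in the table.

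**Figure D1:**
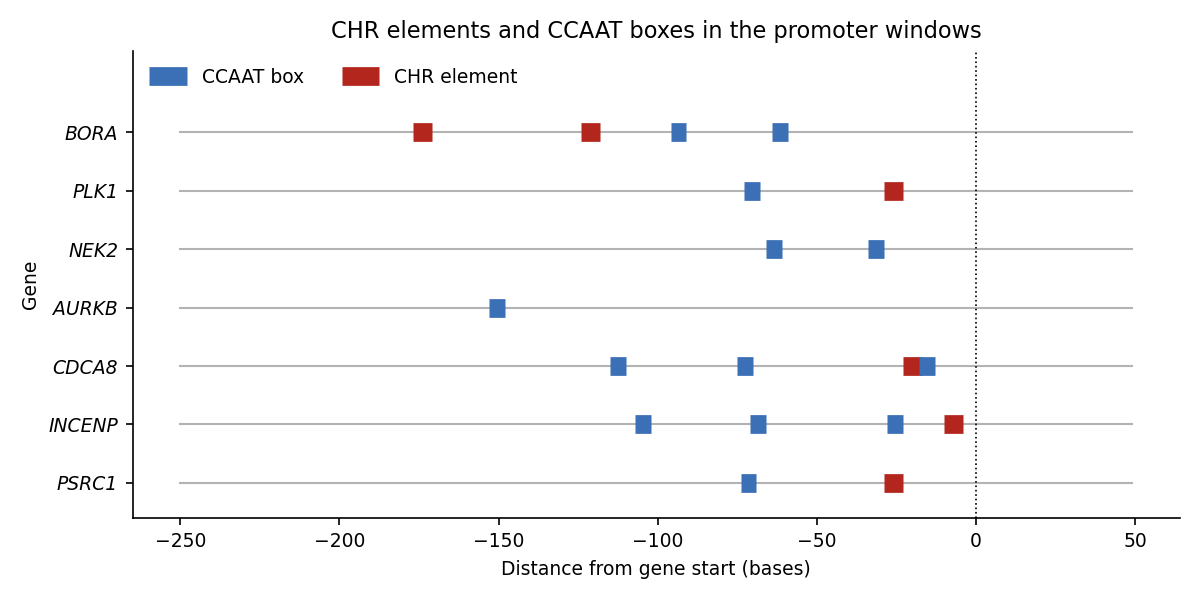
Positions of CHR elements (red) and CCAAT boxes (blue) in the promoter windows of 7 genes (the first of 2 for AURKB), in bases from the gene start (dotted line). The elements of PLK1 and PSRC1 sit at the same distance, 29 bases before the start, and AURKB and NEK2 carry CCAAT boxes only.

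The iCLIP libraries held 781997 and 799709 gene counts for untreated cells and 400723 and 664777 for irradiated cells, with a further 30.6% to 31.3% of all counts on the intergenic line. The RNA-seq libraries held 13015406 and 13023903 gene counts. Shares are given as CPM, the count divided by the library's gene counts and scaled to 1000000. In RNA-seq, 7 of 10 osteoblast and mesenchymal markers had at least 100 counts in untreated cells, led by VIM, and SP7, an osteoblast transcription factor, was at 0. Of 6 epithelial markers 3 had at least 100 counts, led by KRT18, while 5 of 6 blood markers were at 0 and 0 of 5 endothelial markers had 100 counts. The p21 gene CDKN1A, a p53 target that stops the cell cycle after damage, had 21 and 34 iCLIP counts without and 99 and 173 with irradiation. Its RNA-seq counts were 2335 and 8111, so it was higher under the irradiated label in both assays.

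The first comparison asked how much of each message was recovered with TIRR before and after irradiation. AURKA, BORA, TPX2, CDCA8 and PSRC1 fell, and BIRC5 had a log2 fold change of similar size that missed the threshold. AURKB had nearly the same share in both groups, from few counts, and NEK2 had too few counts to be tested. The test was the edgeR quasi-likelihood F test with Benjamini-Hochberg adjustment at 0.05 over 9230 genes, of which 3.50% were called, 1.07% lower and 2.43% higher. Of the 10 genes, 5 were called lower, 1 was tested without a call, 2 were below the filter on low counts and 2 had no line. A count of 5 called lower among 6 tested is no support by itself, since 5 of the 6 passed the filter only through the untreated libraries, where they are high. TPX2 alone reached the filter's level, 10 counts at the median library size, in all 4 libraries.

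**Figure D2:**
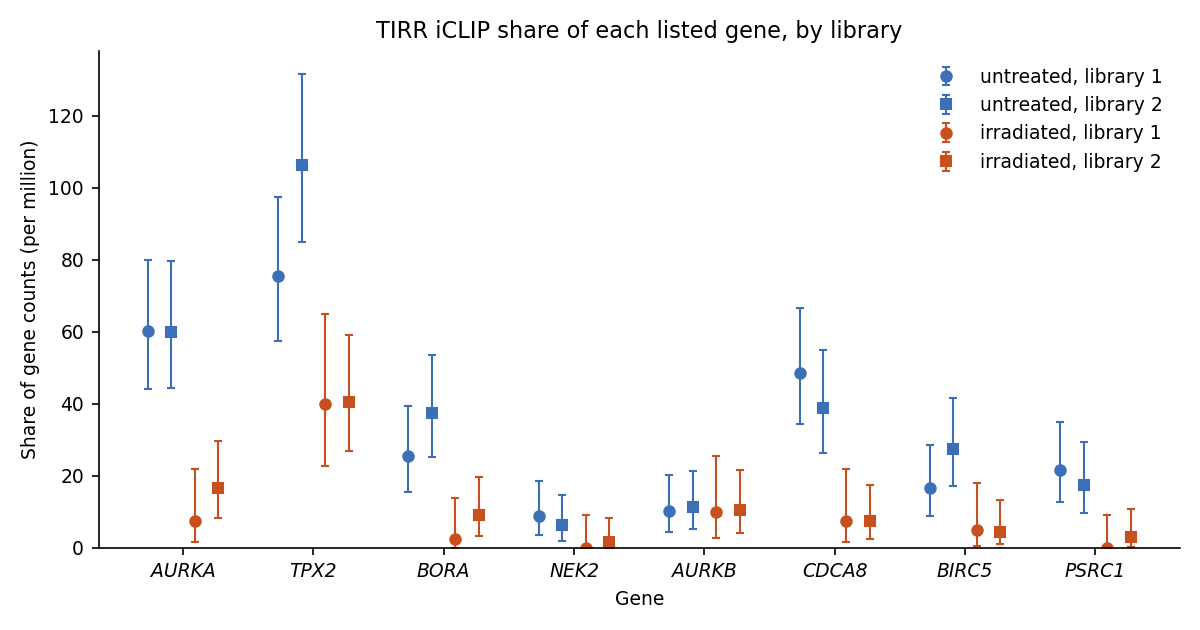
Share of iCLIP gene counts (CPM) of the 8 listed genes in each of the 4 libraries, with exact Clopper-Pearson 95% intervals that cover counting error only. For 7 genes both irradiated libraries lie below both untreated ones, and the 4 AURKB values lie between 9.98 and 11.3 CPM.

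AURKA (ENSG00000087586, chromosome 20, 56369390 to 56392215) encodes Aurora A. Untreated cells gave 47 and 48 counts, irradiated cells 3 and 11. The untreated share was 60.1 CPM in library 1, with an exact Clopper-Pearson 95% interval from 44.2 up to 79.9, and 60.02 in library 2. In irradiated cells it was 7.49 (interval 1.54 to 21.9) and 16.5 CPM (interval 8.26 to 29.6). Both untreated libraries were high and nearly equal, and neither irradiated library reached them. The log2 fold change was -2.12 ± 0.36 (SE, edgeR adjusted p = 0.00168), and the call held in each of the 11 other settings that gave an adjusted p. The size moved to -2.90 without irradiated library 2 and to -1.79 without irradiated library 1.

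TPX2 (ENSG00000088325, chromosome 20, 31739290 to 31801800), the spindle partner of Aurora A, had the most iCLIP counts of the 8 genes. Its counts were 59 and 85 without and 16 and 27 with irradiation, or 75.4 and 106.3 against 39.9 and 40.6 CPM. The irradiated libraries were alike and lay below both untreated ones, which differed from each other. The log2 fold change, -1.10 ± 0.26 (SE), was the smallest of the 5 calls (edgeR adjusted p = 0.0240). The call ended without untreated library 2 (-0.84, edgeR adjusted p = 0.259), without irradiated library 2 (0.0543) and in DESeq2 (0.199).

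BORA (ENSG00000136122, chromosome 13, 72727923 to 72756196), the cofactor through which Aurora A reaches PLK1, had 20 and 30 counts untreated against 1 and 6 irradiated. These were 25.6 and 37.5 against 2.50 and 9.03 CPM, with no overlap. The log2 fold change was -2.18 ± 0.53 (SE, edgeR adjusted p = 0.0260). Its size rested on the irradiated libraries, at -3.49 without irradiated library 2 and -1.73 without irradiated library 1. The call ended without untreated library 2 (edgeR adjusted p = 0.267), without irradiated library 1 (0.0510) and with all libraries thinned to equal depth (0.0563). BORA overlaps DIS3, an RNA exosome gene, by 4028 bases, where reads of the 2 genes may not be told apart, since no source used here states whether strand was used. DIS3 had 2 and 10 iCLIP counts before and 2 and 9 after irradiation.

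NEK2 (ENSG00000117650, chromosome 1, 211658256 to 211675621) had too few counts to pass the filter, 7 and 5 in untreated cells against 0 and 1 in irradiated cells. The ratio of its summed counts, scaled by library size, was 7.72-fold lower with an exact conditional 95% interval of 1.14 to 330.2, which covers counting error only. PLK1 (ENSG00000166851, chromosome 16, 23678889 to 23690367) had no line in the 4 iCLIP tables used here, so no iCLIP value is given for it.

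Among the subunits of the passenger complex, CDCA8 (ENSG00000134690, chromosome 1, 37692516 to 37709719) had 38 and 31 counts untreated against 3 and 5 irradiated. Its share went from 48.6 and 38.8 to 7.49 and 7.52 CPM, and the irradiated libraries were nearly equal. The log2 fold change was -2.44 ± 0.44 (SE, edgeR adjusted p = 0.00252), and the call ended only with thinning to equal depth (0.0794).

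BIRC5 (ENSG00000089685, chromosome 17, 78214253 to 78225635) had 13 and 22 counts untreated against 2 and 3 irradiated, or 16.6 and 27.5 against 4.99 and 4.51 CPM. The groups did not overlap, but the untreated libraries differed from each other. The log2 fold change of -2.13 ± 0.61 (SE) missed the threshold (edgeR adjusted p = 0.0641) and passed it with no filter on low counts (0.0340).

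AURKB (ENSG00000178999, chromosome 17, 8204731 to 8210575), the kinase of the complex, had 8 and 9 counts untreated against 4 and 7 irradiated. Its share was 10.2 and 11.3 before and 9.98 and 10.5 CPM after the dose, so that the groups overlapped. The ratio of the summed counts was 1.01 with an exact conditional 95% interval of 0.426 to 2.28. This interval lies above that of AURKA, 0.121 to 0.403, but both cover counting error only, and the difference between the 2 kinases was not tested over replicates. A change of AURKB within these bounds was not detectable at this depth. INCENP (ENSG00000149503, chromosome 11, 62124011 to 62153169) had no line in the iCLIP tables used here.

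PSRC1 (ENSG00000134222, chromosome 1, 109279556 to 109283145) had 17 and 14 counts untreated against 0 and 2 irradiated, or 21.7 and 17.5 against 0 and 3.01 CPM. The 0 in irradiated library 1 has an exact Clopper-Pearson upper limit of 9.21 CPM, below both untreated values. The ratio of the summed counts was 9.98-fold lower (exact conditional 95% interval 2.54 to 86.04, counting error only). The edgeR adjusted p was 0.0279, and the call ended without untreated library 1 (0.456), untreated library 2 (0.152) or irradiated library 1 (0.0951, log2 fold change -2.58). Without irradiated library 2 no irradiated count is left, so no fold is given.

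Both irradiated libraries lay below both untreated ones for the 6 tested genes, against 22.0% of all tested genes, with the same limit that 5 of the 6 entered the test only through their untreated counts. NEK2, not tested, also had no overlap, and AURKB overlapped. The 8 genes together took 267.3 and 305.1 CPM without and 72.4 and 93.3 with irradiation. The missing lines of INCENP and PLK1 cannot be read as a level of 0. Of 3090 genes with at least 1000 RNA-seq counts in untreated cells, 642 (20.8%) had no line in any of the 4 iCLIP tables used here, while 152 had a line with 1 to 10 counts in all 4 together. The median listed gene of this group had 152 counts over the 4 libraries, and the longest gene without a line spans 523240 bases. What sets these genes apart was not tested.

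In RNA-seq, which asked how the dose changed expression, all 10 genes were lower in the irradiated library, each with a counting interval wholly below a ratio of 1, as 22.0% of all counted genes had. Of the 10, 7 passed the size rule (100 or more counts in either library, a difference of at least 2-fold and a 95% counting interval wholly beyond 1.5-fold). Over all 12977 genes with that many counts, 0.624% passed it downward and 0.863% upward. Since the 10 genes were chosen with earlier results of these data known, these contrasts are no support by themselves. There is 1 library per condition and hence no test, and all intervals cover counting error only. In such bulk RNA, fewer cells in G2 phase and mitosis and less RNA per cell cannot be told apart, which holds for iCLIP as well.

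**Figure D3:**
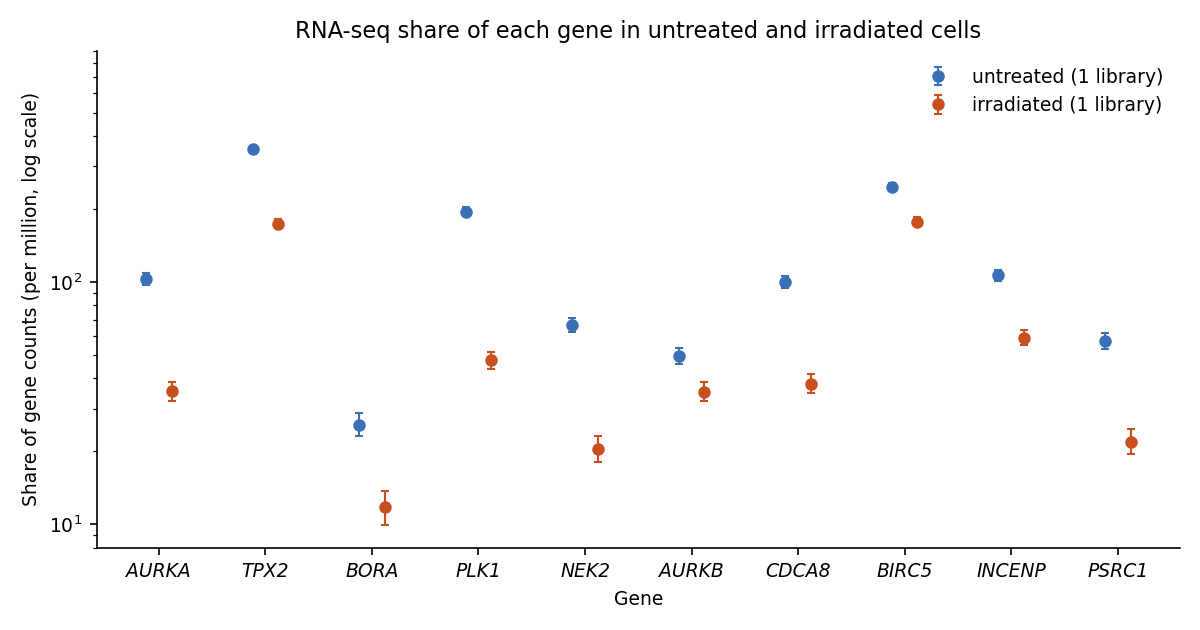
Share of RNA-seq gene counts (CPM, log scale) of the 10 genes in the untreated (blue) and irradiated (orange) library, with exact Clopper-Pearson 95% intervals. Every irradiated value lies below its untreated one, with PLK1 the widest gap (195.3 against 47.5 CPM) and BIRC5 the narrowest (247.8 against 177.7).

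PLK1 had the largest difference, with 2542 counts before and 619 after irradiation, 4.15-fold lower (95% counting interval 3.80 to 4.54). NEK2 had 868 and 267 counts, 3.29-fold lower (2.86 to 3.79). AURKA had 1341 and 461 counts, 2.94-fold lower (2.64 to 3.28). BORA had 336 and 153 counts, 2.22-fold lower (1.83 to 2.71), an interval that overlaps that of AURKA. TPX2, with the most RNA-seq counts of the 10, had 4619 and 2266, 2.06-fold lower (1.96 to 2.17). The microtubule-binding PSRC1 had 743 and 286 counts, 2.63-fold lower (2.29 to 3.02).

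The 4 subunits of the passenger complex had unequal ratios. CDCA8 had 1302 and 496 counts, 2.65-fold lower (2.39 to 2.95), and was the subunit that passed the size rule. INCENP had 1389 and 767 counts, 1.83-fold lower, or a ratio of 0.546 (0.499 to 0.597). AURKB had 646 and 460 counts, 1.42-fold lower (1.26 to 1.60), and BIRC5 had 3225 and 2314, 1.41-fold lower (1.34 to 1.49). The interval of CDCA8 does not overlap those of the other 3 subunits, and the intervals of AURKB and BIRC5 overlap each other. The ratio of AURKA, 0.340 (0.305 to 0.378), likewise lies apart from that of AURKB, 0.704 (0.623 to 0.795), within this 1 pair of libraries.

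Set side by side, the ratios in iCLIP were below those in RNA-seq for the 6 tested genes and NEK2, and above for AURKB. Over 7096 genes tested in iCLIP with enough RNA-seq counts, 48.8% had the lower ratio in iCLIP. Nothing is read from this count, since 5 of the 6 tested genes passed the filter only through high untreated iCLIP counts, which favours low iCLIP ratios. BIRC5 had a ratio of irradiated to untreated of 0.222 (95% counting interval 0.0679 to 0.569) in iCLIP and 0.710 (0.672 to 0.749) in RNA-seq, and these intervals do not overlap. They cover counting error only, and BIRC5 is among the genes that passed the filter only through untreated counts. Nothing is read from this gap either. For CDCA8 the ratios were 0.180 (0.0748 to 0.375) and 0.377 (0.339 to 0.418), for AURKA 0.229 (0.121 to 0.403) and 0.340, and for BORA 0.218 (0.0832 to 0.482) and 0.450 (0.369 to 0.547), with overlapping intervals. TPX2 had nearly the same ratio in both, 0.464 (0.322 to 0.656) and 0.485 (0.461 to 0.510). AURKB was the exception, with a higher point value in iCLIP, 1.01, than in RNA-seq, 0.704. The assays differ in genotype and protocol and RNA-seq has no replicates, so the difference between the assays was not tested.

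**Figure D4:**
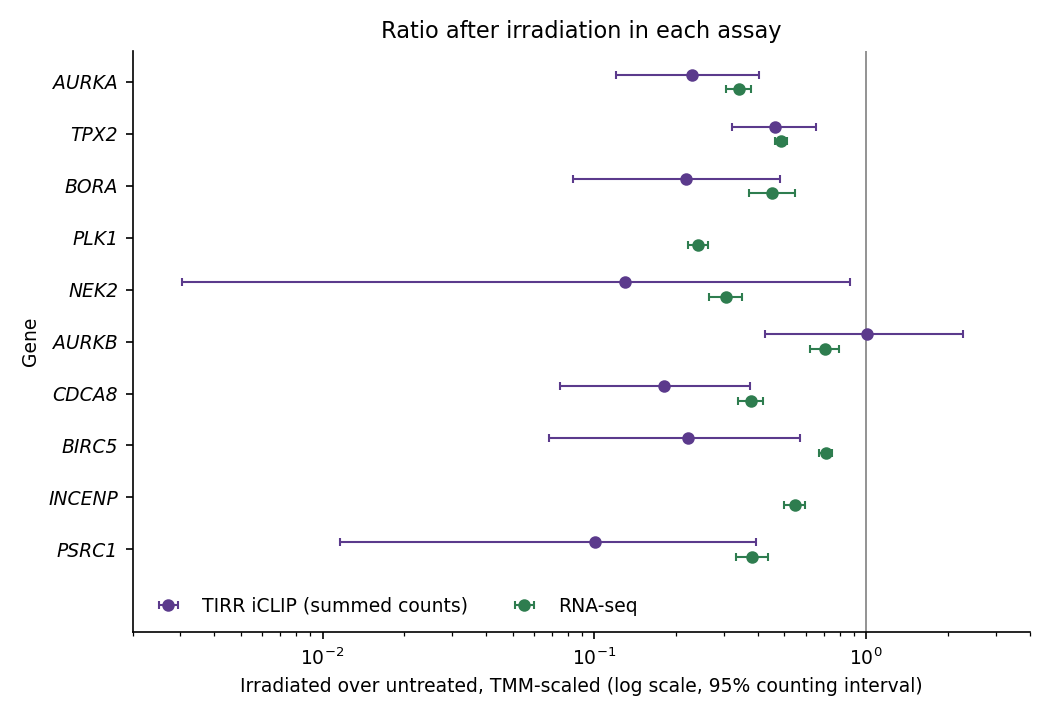
Ratio of irradiated to untreated (log scale, TMM-scaled) in iCLIP from summed counts (purple) and in RNA-seq (green), with 95% counting intervals, for each gene. The iCLIP points lie left of the RNA-seq points except for AURKB, and PLK1 and INCENP have an RNA-seq point only.

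The iCLIP share of a gene divided by its RNA-seq share says how much of it was recovered relative to its level, as a description across 2 genotypes and protocols of the same cell line. In untreated cells this quotient was 1.22 ± 0.327 (SD, n = 2 iCLIP libraries) for BORA, 0.583 ± 0.000554 for AURKA and 0.437 ± 0.0695 for CDCA8. It was 0.344 ± 0.0524 for PSRC1, 0.256 ± 0.0614 for TPX2, 0.216 ± 0.0146 for AURKB, 0.114 ± 0.0286 for NEK2 and 0.0891 ± 0.0311 for BIRC5 (SD, n = 2 each). The median over 11385 genes was 0.841, and 7 of the 8 genes lay below it, BORA being the exception at percentile 59.2 and BIRC5 the lowest at percentile 11.6. In this order CDCA8 and PSRC1, PSRC1 and TPX2, TPX2 and AURKB, and NEK2 and BIRC5 are neighbours whose mean ± SD ranges overlap. An SD of 2 libraries can fall below counting error and leaves out the spread of RNA-seq. These ranges therefore do not settle the order. After irradiation the quotient was 0.339 ± 0.181 for AURKA, 0.197 ± 0.000647 for CDCA8 and 0.0267 ± 0.00190 for BIRC5. It was 0.490 ± 0.393 for BORA, 0.0685 ± 0.0969 for PSRC1 and 0.0367 ± 0.0519 for NEK2. For these 6 of the 8 genes both libraries lay below both untreated ones. Nothing is read from this count. The share over all genes was not computed, and the 5 tested ones passed the iCLIP filter only through high untreated counts, which favours low irradiated quotients. For TPX2 the quotient was 0.231 ± 0.00279, between its untreated values of 0.213 and 0.2995. For AURKB it was 0.290 ± 0.0110, above both of its untreated values (SD, n = 2 each). The small SD of CDCA8 and BIRC5 after irradiation came from 3 and 5 and from 2 and 3 iCLIP counts. With shares of all counts, the intergenic line included, the quotients of all 8 genes were larger in both conditions. Untreated, they were then 0.727 for AURKA, 0.544 for CDCA8 and 0.111 for BIRC5. The median over all genes was not computed on that scale.

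Per kb of the deposited gene length, which includes introns, PSRC1 had the highest iCLIP level of the 8 genes in untreated cells, 5.40 CPM per kb, followed by AURKA with 2.62 and CDCA8 with 2.53. TPX2, first by counts, had 1.45, BORA 1.11 and NEK2 0.479, while BIRC5 and AURKB had 1.93 and 1.83. In RNA-seq the order on the same scale was another, with BIRC5 first (21.6 CPM per kb), then PSRC1 (15.7) and PLK1 (15.4), and BORA last (0.907). The deposited length of PLK1, 12712 bases, is longer than its RefSeq span of 11479, so its place against PSRC1 depends on the span used.

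The wider pathway was described with 4 gene lists. Of 28 regulators and relatives of the Aurora, Polo and Nek kinases, 17 were tested in iCLIP. By edgeR 0 were called and 5 had an unadjusted p below 0.05, as had 1340 of all 9230 tested genes. DESeq2 called 0 of the 17, with 0 below 0.05. Their median log2 fold change was -0.25, against 0.00157 over all tested genes. In RNA-seq 27 of them had enough counts, with a median log2 ratio of -0.41 (-0.00250 over all genes). Of the 27, 4 passed the size rule downward and 1 upward, against 0.624% and 0.863% of all counted genes. CCNB1 (cyclin B1), which activates CDK1 for entry into mitosis, had 4000 and 1925 RNA-seq counts, 2.10-fold lower, and CDC20, an activator of the anaphase-promoting complex, had 3666 and 1452, 2.55-fold lower. The other 2 lower genes, named after their values were seen, were CDC25C, the phosphatase that activates CDK1 (3.07-fold), and CEP55, an abscission protein (2.03-fold). The Polo family divided in RNA-seq: PLK3, a stress-responsive relative of PLK1, had 155 counts untreated and 515 irradiated, 3.29 times as many (2.74 to 3.96). PLK2 had 863 and 1509, 1.73 times as many (1.59 to 1.88). PLK4, the kinase of centriole duplication, had 607 and 467 counts, a ratio of 0.761 (0.673 to 0.860). These 3 relatives were also named after their values were seen.

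Of 21 genes that place the passenger complex or are its partners and substrates, 15 were tested in iCLIP. By edgeR 3 fell, SGO2, KIF4A and RACGAP1, against 1.07% of all tested genes called lower. DESeq2 called 0, with 3 at an unadjusted p below 0.05. It gave SGO2 no adjusted p, so that gene could not be called there. KIF4A and RACGAP1 had DESeq2 adjusted p of 0.244 and 0.251. The median log2 fold change of the 15 was -0.65. SGO2, a shugoshin that guards centromeric cohesion and binds the complex, had 38 and 52 counts untreated against 11 and 6 irradiated. Its log2 fold change was -1.74 ± 0.40 (SE) at an edgeR adjusted p of 0.0178. SGO2 had 48.6 and 65.0 CPM untreated against 27.5 and 9.03 irradiated, at a filter level of 13.8. It thus passed the filter only through the untreated libraries, where it is high, so its call is no support by itself. KIF4A, a kinesin that Aurora B phosphorylates at the midzone, had -0.90 ± 0.23 (0.0311), and RACGAP1, a subunit of centralspindlin, -0.98 ± 0.25 (0.0319). All 3 calls ended with thinning to equal depth (edgeR adjusted p = 0.179, 0.199 and 0.0749) and without some single libraries. These were, for SGO2, untreated 2 (edgeR adjusted p = 0.0510) or irradiated 2 (0.251), for KIF4A untreated 1 (0.410) or irradiated 2 (0.131), and for RACGAP1 untreated 1 (0.0880), untreated 2 (0.0814) or irradiated 1 (0.106). The log2 fold change of SGO2 was -0.97 without irradiated 2 and -2.58 without irradiated 1. The 2 list genes with the most RNA-seq counts were not called in iCLIP: the values were 0.14 for XPO1 and -0.65 for MKI67 on the log2 scale (edgeR adjusted p = 0.681 and 0.213). In RNA-seq 20 of the 21 genes were below a ratio of 1 (50.5% of all counted genes), with a median log2 ratio of -0.84. Of the 21, 4 passed the size rule downward, against 0.624% of all counted genes. These were the midzone kinesin gene KIF20A, 4.33-fold lower, the centromeric histone gene CENPA, 2.31-fold, and the checkpoint kinase genes BUB1, 2.20-fold, and TTK, 2.14-fold.

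**Figure D5:**
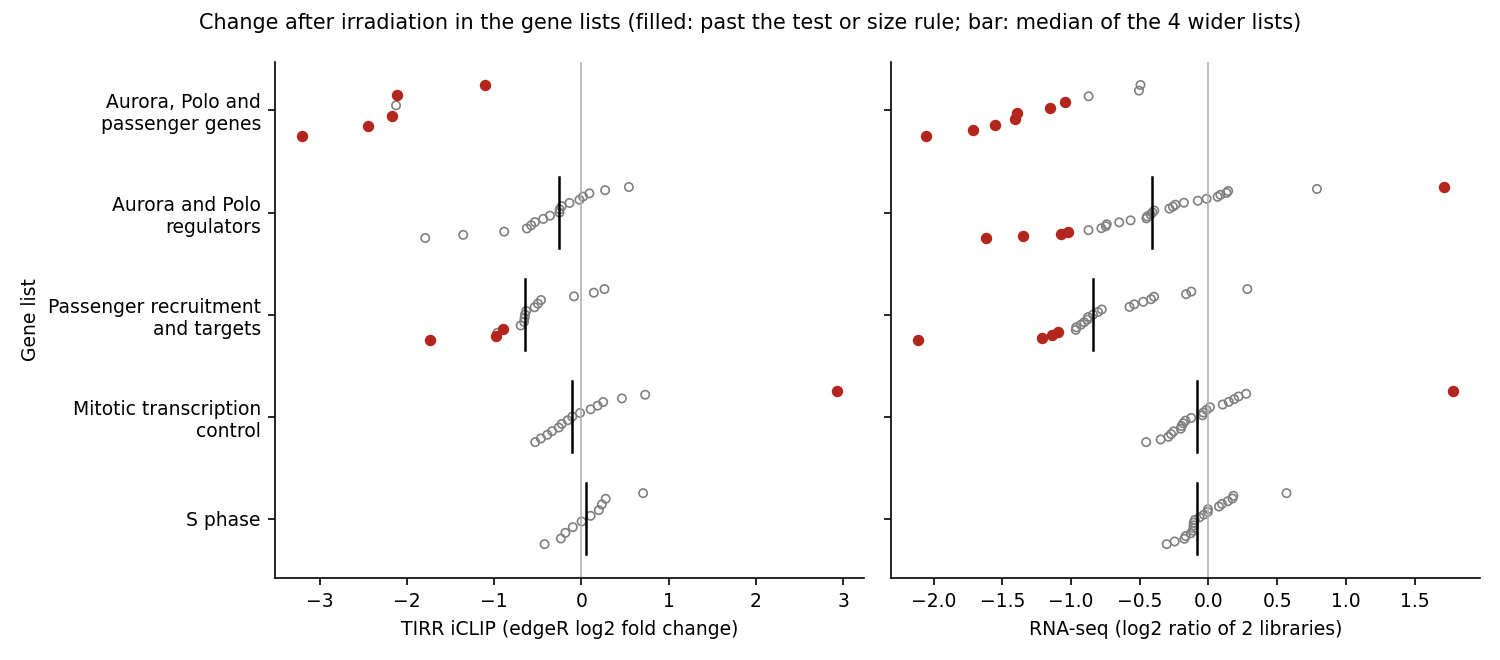
Change after irradiation of each tested gene in 5 gene lists, as the edgeR log2 fold change in iCLIP (left) and the log2 ratio in RNA-seq (right). Filled points passed the test (left) or the size rule (right), and the bars are the medians of the 4 wider lists, which lie near 0 for S phase and mitotic transcription control.

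Of 20 transcription factors and complex subunits that control mitotic genes, 15 were tested in iCLIP with a median log2 fold change of -0.11, and CDKN1A was the 1 call, upward by 2.93 ± 0.22 (SE, edgeR adjusted p = 9.6e-08). FOXM1, an activator of mitotic genes, was at 0.25 on the log2 scale in iCLIP (edgeR adjusted p = 0.870), of either sign when 1 library was left out, with RNA-seq counts of 7265 and 5363, 1.37-fold lower. MYBL2, its partner at such promoters, had -0.23 (0.693) and 5115 and 5121 RNA-seq counts. For 20 genes of DNA replication, the phase before G2, the medians were 0.05 in iCLIP and -0.08 in RNA-seq, where 0 passed the size rule. In iCLIP 10 were tested and 0 were called, by edgeR or by DESeq2. Each method had 1 gene at an unadjusted p below 0.05, against 1340 of all 9230 tested genes in edgeR. TYMS, for nucleotide synthesis, had 5728 and 5772 RNA-seq counts and RRM2, a ribonucleotide reductase subunit, 5722 and 5531. In iCLIP the log2 values were 0.71 for TYMS (edgeR adjusted p = 0.0699, passing without irradiated library 1 at 0.0409) and 0.10 for RRM2 (0.772).

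Among 7090 other genes tested in iCLIP with enough RNA-seq counts, the 5 nearest to the mean profile of the 8 listed genes were TNFAIP8L1, FZD2, DBP, GAS2L3 and CEP70, by Euclidean distance over the 6 libraries of log2(TMM-scaled CPM + 2) centred within each assay (distances 0.476 to 0.675). The 8 genes themselves lay 0.553 (NEK2) to 1.82 (AURKB) from that mean. TNFAIP8L1 had 59 and 58 iCLIP counts before and 7 and 20 after irradiation, with 931 and 276 RNA-seq counts. GAS2L3, a cytoskeletal linker of late mitosis, had 35 and 35 against 2 and 11 iCLIP counts, with 396 and 157 in RNA-seq, and CEP70, a centrosomal protein gene, had 54 and 77 against 11 and 25, with 401 and 256. FZD2, a Wnt receptor gene, and DBP, a clock-controlled transcription factor gene, were not called in iCLIP (edgeR adjusted p = 0.0595 and 0.125). All 5 were picked by closeness in these same libraries, so their lower irradiated values follow from the selection and are no support.

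In the RefSeq annotation, PLK1 overlaps ERN2 by 58 bases and NEK2 overlaps the pseudogene FDPSP8 by 1167 bases, and these neighbours had 23 and 9, and 2 and 1, RNA-seq counts. AURKAP1, a processed copy of AURKA, had 26 and 13 RNA-seq counts and 1 iCLIP count in each condition.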

How the data were processed

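The authors deposited 1 table per library with whole-number cDNA counts per gene and an intergenic line, per the file headers. The authors also deposited each line's percent of all cDNA, per the file headers. The length column matches annotated gene spans. The build is hg38, and kallisto 0.44.0 is named for RNA-seq, per the submitters' processing notes. No source used here gives the aligner, duplicate removal, strand setting or annotation release. Library sizes exclude the intergenic line (30.6% to 31.3% of iCLIP and 44.4% of RNA-seq counts). Genes were matched by Ensembl identifier (99.9% of iCLIP and 99.7% of RNA-seq identifiers were in the name table).

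Counts were tested with edgeR 4.0.16 (R 4.3.3) with TMM scaling and the default filterByExpr filter, irradiated against untreated iCLIP libraries, two-sided. Standard errors were derived from the F statistic. The edgeR step was tested on simulated data. Intervals are exact (Clopper-Pearson, or conditional for a ratio of counts) at 95% and cover counting error only, with scipy 1.17.1 in Python 3.11.15. Alternatives included DESeq2 1.42.0. Replicates were distinct libraries, with a chi-square per degree of freedom of 1.51 (untreated) and 2.12 (irradiated).

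The genes and lists were chosen with earlier results of these data known. The text names the 10 genes, up to 6 called iCLIP genes and the 2 with the most RNA-seq counts of each list, the 5 nearest profiles and genes overlapping the 10.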

Additional observations from a re-analysis of the deposited data

How the results depend on the processing

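The 5 iCLIP calls among the 10 genes rested on few counts. With all libraries thinned to equal depth only 4 of the 10 genes were tested, as BIRC5 and PSRC1 no longer passed the filter. AURKA was called in all 11 other settings with an adjusted p, and CDCA8 in 10 of 11. The number of the 10 genes called lower was 2 with all libraries thinned to equal depth and ranged from 2 to 4 with 1 library left out, where the lone library of a group is assumed to vary like the others. DESeq2 gave an adjusted p to TPX2 alone of the 6 tested genes, so no such number is given for it, and all 6 had unadjusted p from 0.000413 to 0.0284 there. Over all genes the calls numbered 323, of which 99 were lower. DESeq2 gave some genes no adjusted p, so its calls came from fewer genes. The calls numbered 122 (17 lower) in DESeq2, 190 (40) with a replicate block and, of 7271 genes tested, 187 (36) with thinning. With 1 library left out they ranged from 186 to 421 (41 to 132 lower). Lower genes were 30.7% of the calls, 41.8% with library totals and 43.2% with intergenic counts in those totals, which both shifted the log2 fold changes by a median of -0.07. Same-numbered libraries did not deviate together (correlation of deviations -0.09 over 9230 genes, 2 pairs), and with the replicate block 4 of the 10 genes were called, PSRC1 losing its call (edgeR adjusted p = 0.0575). With that block KIF4A and RACGAP1 lost their calls too (0.0700 and 0.0746). In RNA-seq 7 of the 10 genes passed the size rule, 7 with library totals, 6 with at least 500 counts and 8 at 1.5-fold. FOXM1, not called in any of these settings, changed sign with thinning (-0.10) and ranged from -0.088 to 0.656 with 1 library left out, and RRM2, likewise not called, from -0.024 to 0.229. The causes of these shifts were not tested. Depth limits AURKB and NEK2 most, with 28 and 13 iCLIP counts over the 4 libraries.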
